A study of Mus musculus with 10 samples.

Results

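The axon guidance ligands and receptors of adult mouse hair cells were taken as every gene of the deposited table whose symbol is that of a class 3 to 7 semaphorin, a plexin, a neuropilin, an ephrin, an Eph receptor, a Slit, a Robo, a netrin or netrin-G protein, an Unc5 receptor or Dcc. This rule used symbols and no measured value, and it matched 73 of the 48440 genes listed: 36 ligands, 34 receptors and 3 antisense RNAs named after Plxna4. Levels came from RNA-seq of 2 libraries of inner hair cells (IHCs) and 3 libraries of outer hair cells (OHCs), each made from about 1000 single cells that were picked by shape with a suction pipette from cochleae of untreated CBA/J mice, and each was sequenced in 2 lanes. The sample labels give an age of 28 to 32 days for both cell types. They name the replicates only by number and do not say which pooled mice went into which library. Every error and p-value below therefore describes the spread between these libraries. The labels also hold a prefix and a second index sequence, each the same within a cell type and different between them. These cannot be told apart from the cell type, and the meaning of the prefix is not given. Values are in RPKM, which is the number of reads of a gene divided by its exon length in kilobases and by the mapped reads in M, a level per length by which genes can be compared with each other.

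Axon guidance proteins steer growing nerve fibres, and many remain in adult tissues, where they act on cell contacts, blood vessels and synapses. Netrins attract fibres through Dcc and repel them through Unc5 receptors, and Slits repel through Robo receptors. Class 3 semaphorins are secreted and act on a neuropilin paired with a plexin, while the other semaphorin classes studied here are mostly held in the membrane and bind plexins directly. Ephrins are held in the membrane, and bind Eph receptors of the neighbouring cell, the A ligands mostly EphA receptors and the B ligands mostly EphB receptors, with signals in both directions. In the cochlea the IHCs are contacted by type I fibres of the spiral ganglion, and the OHCs by type II fibres and by efferent fibres, and in the developing mouse Sema3f with its receptor Nrp2 keeps type I fibres out of the OHC region.

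The reads behind the values ranged from 9.9 to 11.6 M per lane. The 3 IHC markers of the marker list were all higher in IHCs, with summed levels of 151 to 153 RPKM against 6.13 to 6.7 RPKM in OHCs, and 7 of the 8 OHC markers were higher in OHCs (433 to 454 against 14200 to 15100 RPKM), the last, Insm1, being at 0 in all libraries. Of the 12 markers of hair cells of both types, 4 were higher in IHCs (33.3%) and 7 in OHCs (58.3%). Markers of other cells were compared as well. By the same test, described below, 34.4% of all genes tested were higher in IHCs and 34.4% in OHCs. Of the markers that were tested, 7 of 11 for fibrocytes (348 to 349 RPKM summed in IHCs against 695 to 714 in OHCs), 6 of 8 for the stria vascularis (36.8 to 36.9 against 76.2 to 77.2, Tyrp1 at 0), 7 of 9 for leukocytes (8.41 to 8.56 against 108 to 112, Cd3e and Cx3cr1 at 0) and 6 of 6 for erythrocytes (343 to 356 against 1550 to 1670) were higher in OHCs. The supporting cell markers were split, with 4 of 13 higher in IHCs, among them Slc1a3 (131 against 7.67 RPKM) and Gjb2 (405 against 121 RPKM), and 7 higher in OHCs, among them Fgfr3 (0.705 against 32.2 RPKM) and Bace2 (23.3 against 172.9 RPKM). Of the Schwann cell and glia markers 1 of 6 was higher in IHCs and 2 in OHCs (28.1 to 30.4 against 16.7 to 18.2 RPKM). The glia sum was mostly Sox10 (26.7 against 13.4 RPKM), while Mbp (0.904 against 1.88 RPKM) and Pmp22 (0.408 against 0.916 RPKM) were higher in OHCs. Of the 4 vessel and pericyte markers that were tested, 1 was higher in IHCs and 3 in OHCs (2.15 to 2.35 against 1.19 to 1.24 RPKM, Cspg4 at 0). The vessel sum in IHCs was nearly all Esam (2.19 against 0.0716 RPKM), while Pecam1 and Acta2 were at 0 there (0.156 and 0.159 RPKM in OHCs) and Pdgfrb was near 0 (0.00821 against 0.696 RPKM). Of the 9 spiral ganglion markers that were tested, 5 were higher in IHCs and 3 in OHCs, with Prph at 0 and a sum set by Calb2, which IHCs also express. The part of these cells in the values of the axon guidance genes was not tested, and in pools of this kind a smaller number of cells of a type and less RNA per cell cannot be told apart.

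The second lanes of both IHC libraries and of OHC replicate 1 differed from the first lanes in 489 to 531 of 8436 to 8880 genes (exact binomial test of the reads, Benjamini-Hochberg adjusted within the library) while OHC replicate 2 had 1 such gene and OHC replicate 3 had 0. None of the 41 to 45 axon guidance genes with at least 20 reads in a library differed between its lanes in that test, with a smallest adjusted p of 0.151 by exact binomial test and with 1 or 2 of them in each library at an unadjusted p under 0.05. The lanes of a library were averaged.

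Of the 73 genes, 31 averaged 1 RPKM or more in one of the cell types or in both: 19 in both, 3 in IHCs alone (Sema5b, Sema3d and Sema3b) and 9 in OHCs alone (Unc5b, Nrp2, Sema3f, Sema4c, Sema4f, Sema6a, Efna5, Efnb1 and Ephb1). In IHCs the highest levels were those of Ntn4, a netrin of basement membranes (49.0 ± 0.773 RPKM, SD, n = 2), Efna1, the ephrin-A1 ligand (34.0 ± 0.313 RPKM), Plxnb2, a plexin that binds class 4 semaphorins (8.40 ± 0.112 RPKM), and Epha7 (7.09 ± 0.174 RPKM). In OHCs the order was Plxnb2 (42.5 ± 0.524 RPKM, SD, n = 3), Efna1 (32.9 ± 0.619 RPKM), Ntn4 (15.7 ± 0.235 RPKM) and Sema6b (11.7 ± 0.353 RPKM). The libraries of neighbours in these orders did not overlap down to the sixth place in either cell type. From there several ranges ran into each other, as for Sema5b, Efnb2 and Epha4 in IHCs, which were not separated beyond the spread of the libraries. In OHCs the range of Ephb3 (5.17 to 6.41 RPKM) ran into those of Sema3a, Efna4 and Nrp2, and that of Efna4 into that of Nrp2. All Sema3a libraries lay above those of Efna4 and Nrp2.

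**Figure D1:**
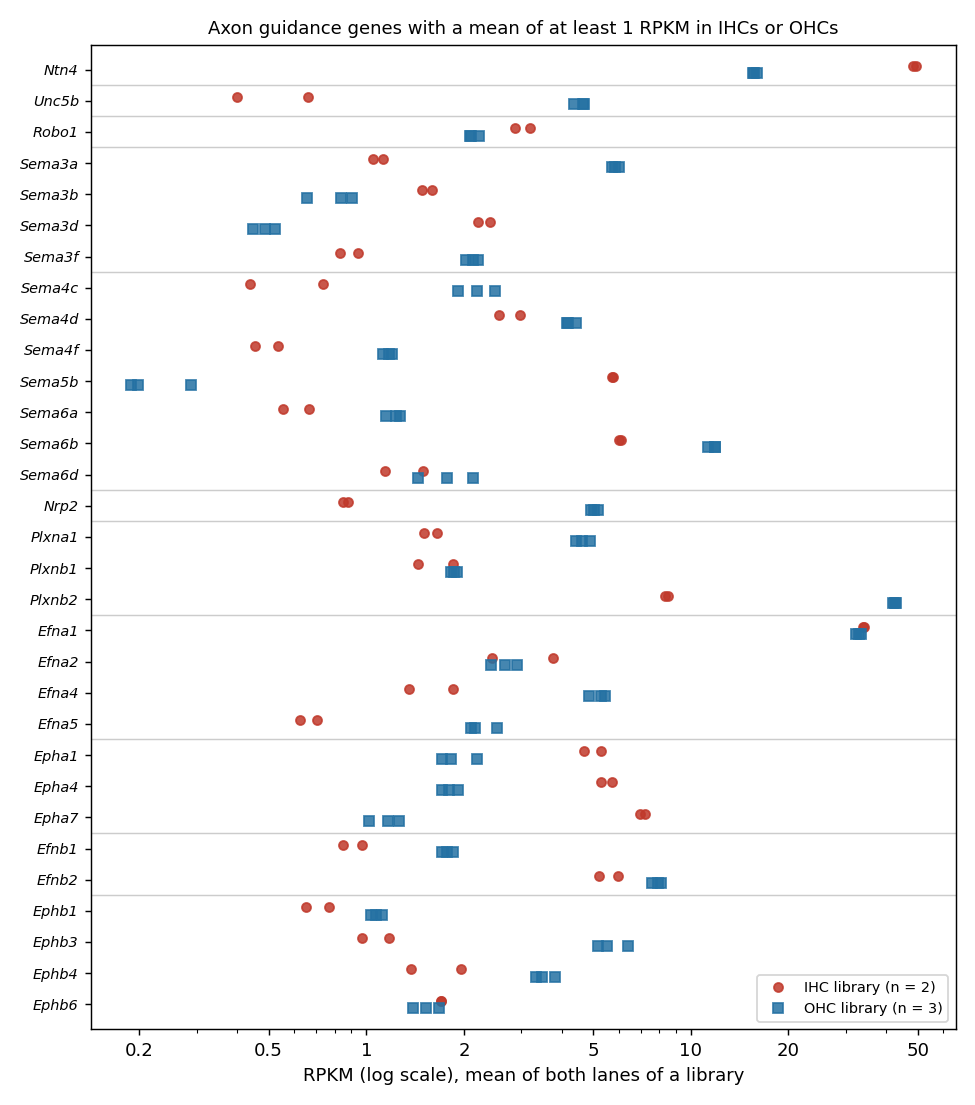
RPKM (log scale) of the 31 axon guidance genes that average 1 RPKM or more in IHCs or OHCs, grouped by family, with 1 circle per IHC library (n = 2) and 1 square per OHC library (n = 3), each the mean of 2 lanes. Ntn4, Sema5b, Sema3d and the 3 EphA receptors lie to the right in IHCs, Plxnb2, Nrp2, Sema3a, Unc5b and Ephb3 lie to the right in OHCs, and the Efna1 libraries lie between 32.3 and 34.3 RPKM in both.

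To compare the cell types, log2(RPKM + 0.1) was fitted with limma over the 16462 genes that reached 0.1 RPKM in 2 or more libraries. P-values were adjusted by the Benjamini-Hochberg method, a gene was called where the adjusted p was under 0.05, and log2 differences below are IHC minus OHC on that scale, which understates the change of low genes. An exact permutation test of a single gene cannot go below p = 0.1 here, since there are only 10 ways to split 5 libraries into 2 and 3. Of the 73 axon guidance genes, 50 could be tested. IHCs were higher in 12 of them (24.0%, against 34.4% of all genes tested) and OHCs in 28 (56.0%, against 34.4% of all genes tested), and 10 did not pass. With the first lanes alone these counts were 10 and 26. With a difference of at least 1 on the log2 scale, 8 were higher in IHCs (11.1% of all genes) and 20 in OHCs (16.0% of all genes). The median log2 difference over the 50 genes was -0.61, beside -0.005 over all genes tested. Of the 50 genes, 3 reached the minimum level through the IHC libraries alone (Epha3, Plxnb3 and Unc5a) and 9 through the OHC libraries alone (Efnb3, Epha2, Nrp1, Ntng1, Sema3e, Sema4a, Sema4g, Slit2 and Unc5c), so that these genes could enter the test only by being higher there, and their p-values are given as a description. Among the 28 genes whose mean over the 5 libraries was 1 RPKM or more, IHCs were higher in 8 and OHCs in 15, where 40.9% and 33.3% of all genes at this level were called. Taken by role, IHCs were higher in 5 and OHCs in 17 of the 27 tested ligands, and IHCs were higher in 7 and OHCs in 11 of the 23 tested receptors.

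**Figure D2:**
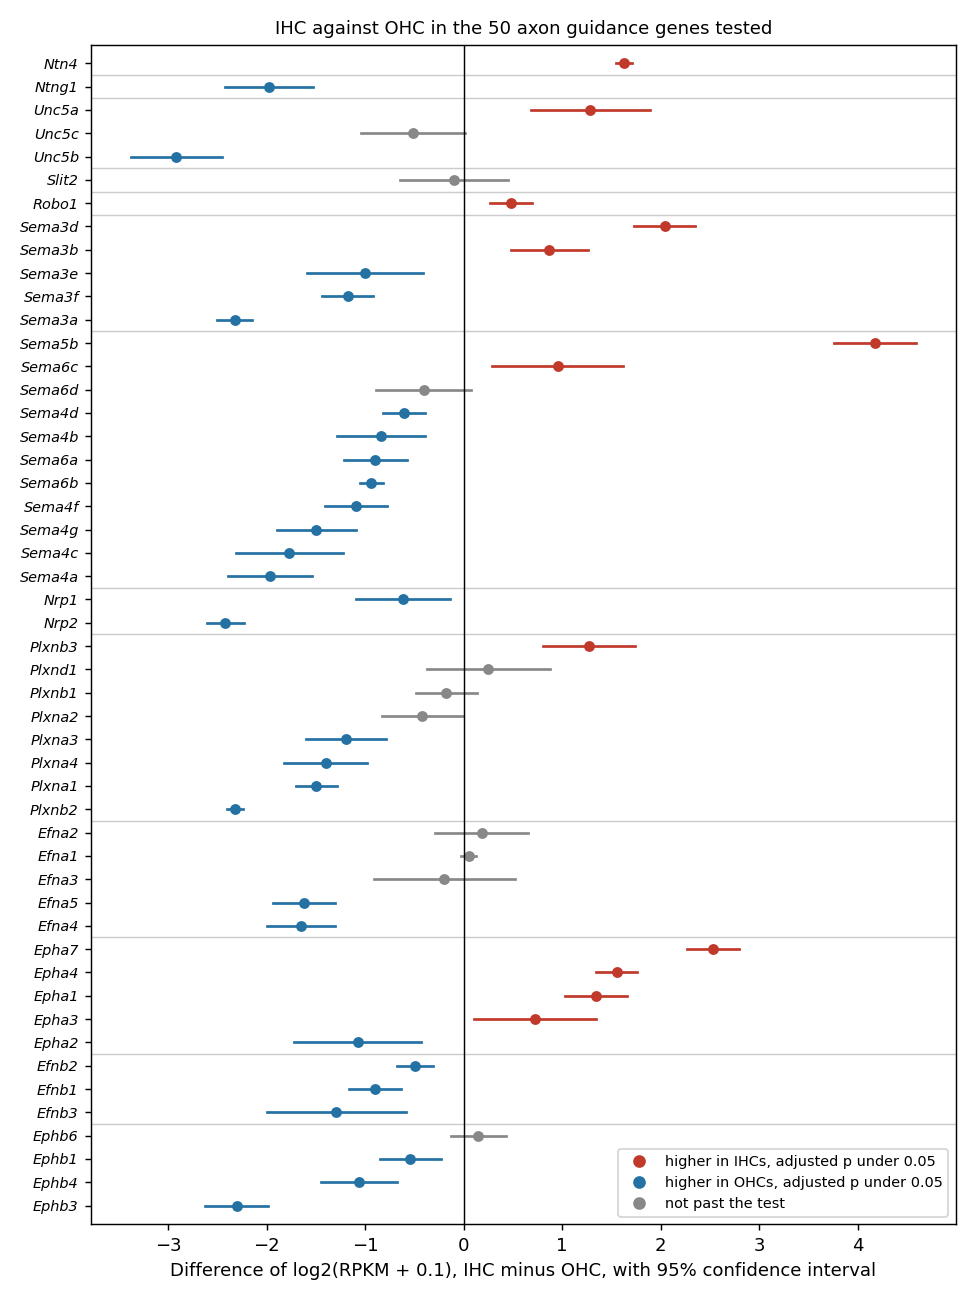
Difference of log2(RPKM + 0.1), IHC minus OHC, for the 50 axon guidance genes tested, grouped by family, with points for the limma estimate from 2 IHC and 3 OHC libraries and lines for its 95% confidence interval. The estimates run from -2.92 for Unc5b to 4.18 for Sema5b, with 12 genes called higher in IHCs, 28 called higher in OHCs and 10 not past the test.

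The netrin ligand of hair cells was Ntn4, the gene for netrin-4, which binds laminins of the basement membrane (ENSMUSG00000020019, chromosome 10 of GRCm38 from 93640681 to 93747207). It measured 49.5 and 48.4 RPKM in the IHC libraries and 15.7, 16.0 and 15.5 RPKM in the OHC libraries. All IHC libraries lay above all OHC libraries, a 3.11-fold higher mean in IHCs (log2 difference 1.63 ± 0.0327 SE, limma adjusted p = 9.2e-07). The other netrins were near or at the limit of detection: Ntn1, the classical attractant, stayed between 0.00714 and 0.04 RPKM, with 1 to 5 reads per library, and Ntn5 was at 0 in every library. Dcc, the attractive netrin receptor, was at 0 in every library as well.

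The main Unc5 receptor was Unc5b, a repulsive netrin receptor also known from blood vessels (ENSMUSG00000020099, chromosome 10 from 60762593 to 60831581). It had 0.399 and 0.663 RPKM in the IHC libraries and 4.64, 4.38 and 4.70 RPKM in the OHC libraries. These groups did not overlap, and the OHC mean was 8.61-fold higher (log2 difference -2.92 ± 0.186 SE, limma adjusted p = 5.54e-05). Ntn4 and Unc5b therefore lay on opposite sides of the comparison. The netrins summed to 48.96 ± 0.772 RPKM (SD, n = 2) in IHCs and 15.8 ± 0.219 RPKM (SD, n = 3) in OHCs, and the Unc5 receptors with Dcc to 0.934 ± 0.27 RPKM and 4.85 ± 0.168 RPKM. Unc5a, a neuronal member of the family that reached the minimum level through the IHC libraries alone, had 0.271 RPKM in IHCs and 0.0541 RPKM in OHCs on average. Unc5c had 0.107 RPKM in IHCs and 0.193 RPKM in OHCs and did not pass (limma adjusted p = 0.0738), although it did without IHC replicate 2 (limma adjusted p = 0.0289), and Unc5d stayed under 0.05 RPKM in every library. Ntng1, which encodes netrin-G1, a membrane-anchored relative that binds no netrin receptor, had 0.327 RPKM in OHCs against 0.00886 RPKM in IHCs, from 160 reads against 3, a ratio of read rates of 35.5 with a 95% counting interval of 11.9 to 174.

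The promoters of the genes that lead this comparison are shown here, since the largest called difference in each direction on the log2(RPKM + 0.1) scale (Sema5b and Unc5b) and the highest level in each cell type (Ntn4 and Plxnb2) belong to them. With a pseudocount of 0.01 RPKM the weaker Ntng1 (-4.34), Epha2 (-3.56), Efnb3 (-3.44) and Sema4a (-3.38) went beyond Unc5b (-3.13). Each line gives the 250 bases before the RefSeq gene start on the strand of the gene, from RefSeq on GRCm38.p6, with CpG dinucleotides in capitals.
Ntn4, chr10:93640799-93641048, plus strand: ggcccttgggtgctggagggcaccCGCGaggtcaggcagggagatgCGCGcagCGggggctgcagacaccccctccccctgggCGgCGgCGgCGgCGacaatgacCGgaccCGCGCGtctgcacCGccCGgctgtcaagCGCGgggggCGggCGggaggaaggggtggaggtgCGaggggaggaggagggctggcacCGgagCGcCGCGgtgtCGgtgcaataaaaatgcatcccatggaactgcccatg
Unc5b, chr10:60831582-60831831, minus strand: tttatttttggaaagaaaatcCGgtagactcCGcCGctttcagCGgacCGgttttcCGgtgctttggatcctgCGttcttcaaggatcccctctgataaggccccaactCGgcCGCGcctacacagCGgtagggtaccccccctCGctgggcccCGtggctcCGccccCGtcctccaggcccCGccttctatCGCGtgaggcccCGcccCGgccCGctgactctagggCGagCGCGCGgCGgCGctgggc
Sema5b, chr16:35541112-35541361, plus strand: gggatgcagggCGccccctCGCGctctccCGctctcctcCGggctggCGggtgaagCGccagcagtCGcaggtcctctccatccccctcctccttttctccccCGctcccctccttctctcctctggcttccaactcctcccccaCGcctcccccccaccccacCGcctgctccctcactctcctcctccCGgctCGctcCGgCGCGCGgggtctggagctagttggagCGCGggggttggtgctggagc
Plxnb2, chr15:89180789-89181038, minus strand: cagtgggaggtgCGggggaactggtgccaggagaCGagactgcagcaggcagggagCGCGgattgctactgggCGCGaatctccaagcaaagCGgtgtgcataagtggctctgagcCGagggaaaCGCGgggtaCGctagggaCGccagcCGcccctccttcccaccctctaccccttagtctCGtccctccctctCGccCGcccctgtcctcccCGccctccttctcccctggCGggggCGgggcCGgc
The counts of CpG were 26 for Ntn4, 27 for Unc5b, 19 for Sema5b and 20 for Plxnb2. The GENCODE start lies 368 bases upstream of the RefSeq start for Ntn4, so that its printed window lies inside the GENCODE gene. For Sema5b it lies 217 bases upstream, so that most of its window does. Both starts are at the same base for Unc5b and Plxnb2. Some other windows lie far from the GENCODE start, as for Robo1 (354843 bases) and Sema3a (271370 bases). Promoters of 60 of the 73 genes were matched by symbol, and their median was 16 CpG and 64.6% G and C, beside 6 CpG and 52.4% over all 32851 promoters of the table, which include noncoding genes. Among these 60, the count ran from 1 in Sema4d to 46 in Epha8, which was at 0 in every library. CAGCTG, the letters of an E-box, was found in 11 of the 60 windows (13.0% of all promoters), AGGTGT, the core of a T-box site, in 7 (11.8% of all), GTTGCC, the core of an RFX site, in 8 (10.4% of all) and TATAAA, the TATA box, in 2 (12.4% of all), each searched on both strands, and none of them contains another. None of these was in the 4 windows printed, which says only that the letters are absent there.

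Of the Slit and Robo genes, a pair of repulsive ligands and receptors, Robo1 (ENSMUSG00000022883, chromosome 16 from 72308306 to 73046095) was the only one above 1 RPKM. It had 2.86 and 3.19 RPKM in the IHC libraries and 2.11, 2.09 and 2.22 RPKM in the OHC libraries. The IHC mean was 1.41-fold higher, without overlap (log2 difference 0.48 ± 0.0858 SE, limma adjusted p = 0.00373). Slit2, a Robo ligand, had 0.0925 RPKM in IHCs and 0.108 RPKM in OHCs and did not pass (log2 difference -0.10, 95% confidence interval -0.65 to 0.45), and the sign of this difference turned without OHC replicate 1 (0.02) and after quantile normalization (0.35). Slit3 had 3 reads in IHCs and 38 in OHCs, a ratio of read rates of 8.43 with a counting interval of 2.67 to 42.7. Robo2 was at 0 in IHCs and had 6 to 11 reads in each OHC library, at least 3.1-fold above the floor of 3 reads per library. Slit1, Robo3, a receptor of commissural neurons, and Robo4, an endothelial receptor, were at 0 in every library.

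The secreted class 3 semaphorins differed in kind between the cell types. Sema3a, the founding member of the class and a ligand of Nrp1 (ENSMUSG00000028883, chromosome 5 from 13125414 to 13602565), had 1.13 and 1.05 RPKM in the IHC libraries and 5.84, 5.72 and 6.02 RPKM in the OHC libraries. It was 5.38-fold higher in OHCs (log2 difference -2.33 ± 0.0719 SE, limma adjusted p = 3.9e-06). Sema3d (ENSMUSG00000040254, chromosome 5 from 12383385 to 12588948) had the opposite pattern, with 2.41 and 2.21 RPKM in the IHC libraries against 0.449, 0.487 and 0.524 RPKM in the OHC libraries. Its mean was 4.75-fold higher in IHCs (log2 difference 2.04 ± 0.124 SE, limma adjusted p = 4.56e-05). Sema3f, a ligand of Nrp2, had 0.943 and 0.831 RPKM in the IHC libraries and 2.13, 2.03 and 2.22 RPKM in the OHC libraries, 2.4-fold higher in OHCs (limma adjusted p = 0.000209). Sema3b, another ligand of this class, had 1.59 and 1.48 RPKM in the IHC libraries and 0.907, 0.657 and 0.838 RPKM in the OHC libraries, 1.92-fold higher in IHCs (limma adjusted p = 0.00392, and 0.0542 without IHC replicate 1). Sema3a thus made up 18.2 to 18.6% of the summed class 3 level in the IHC libraries and 60.2 to 62.1% in the OHC libraries, and Sema3d 38.9 to 39.0% and 4.63 to 5.31%. The weaker Sema3e, which binds Plxnd1 without a neuropilin, had 0.0488 RPKM in IHCs and 0.199 RPKM in OHCs (limma adjusted p = 0.0115, and 0.0657 with the second lanes alone). It had reached the minimum level through the OHC libraries alone. Sema3c stayed under 0.11 RPKM in every library, and Sema3g was at 0 in IHCs with 2 to 4 reads per OHC library.

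The neuropilins, the ligand-binding co-receptors of class 3 semaphorins, had higher levels in OHCs. Nrp2 (ENSMUSG00000025969, chromosome 1 from 62703285 to 62818695) had 0.877 and 0.846 RPKM in the IHC libraries and 5.05, 5.19 and 4.91 RPKM in the OHC libraries. This is a 5.87-fold higher mean in OHCs, with libraries far apart (log2 difference -2.42 ± 0.0748 SE, limma adjusted p = 3.9e-06). Nrp1, the receptor of Sema3a, was much weaker, at 0.0609 and 0.0997 RPKM against 0.169, 0.169 and 0.187 RPKM (limma adjusted p = 0.031). It had reached the minimum level through the OHC libraries alone. The Nrp1 call rested on 8 to 23 reads per library and was lost without OHC replicate 1, 2 or 3 (limma adjusted p = 0.053, 0.0585 and 0.0702). Nrp2 made up 89.4 to 93.5% of the summed neuropilin level in the IHC libraries and 96.3 to 96.8% in the OHC libraries.

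On the log2(RPKM + 0.1) scale Sema5b showed the widest difference of the 50 tested genes, although the ratio of Ntng1, which rests on 3 reads in IHCs, was larger, and by voom on the recovered reads Ntng1 (-5.42) went beyond Sema5b (4.67). It encodes a membrane semaphorin with thrombospondin repeats that limits the branching of spiral ganglion fibres in the developing mouse cochlea (ENSMUSG00000052133, chromosome 16 from 35541145 to 35664732). The IHC libraries had 5.71 and 5.75 RPKM and the OHC libraries 0.288, 0.188 and 0.198 RPKM. The IHC mean was 25.5-fold higher, from 829 to 899 reads per IHC library against 28 to 47 per OHC library (log2 difference 4.18 ± 0.167 SE, limma adjusted p = 9.72e-06). Sema5a, its close relative, had at most 2 reads in any library.

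With Sema5b included, 8 of the 11 tested membrane semaphorins were called higher in OHCs, where 34.4% of all genes were. Of these 8, Sema4a and Sema4g had reached the minimum level through the OHC libraries alone. Sema6b, a class 6 ligand of class A plexins and the strongest semaphorin of both cell types (ENSMUSG00000001227, chromosome 17 from 56123085 to 56140343), had 6.00 and 6.11 RPKM in the IHC libraries and 11.9, 11.3 and 11.9 RPKM in the OHC libraries. It was 1.93-fold higher in OHCs (log2 difference -0.94 ± 0.047 SE, limma adjusted p = 2.21e-05). Sema4d, a class 4 ligand of Plxnb1 and Plxnb2, had 2.98 and 2.56 RPKM in the IHC libraries and 4.43, 4.16 and 4.19 RPKM in the OHC libraries, a 1.54-fold difference (limma adjusted p = 0.00155). Sema4c, which binds Plxnb2, had 0.734 and 0.438 RPKM in the IHC libraries and 1.92, 2.49 and 2.20 RPKM in the OHC libraries, a 3.75-fold difference (limma adjusted p = 0.00081). Sema4f, another class 4 member, had 0.535 and 0.455 RPKM against 1.17, 1.20 and 1.13 RPKM, a 2.36-fold difference. Sema6a, a ligand of Plxna2 and Plxna4, had 0.553 and 0.665 RPKM against 1.23, 1.27 and 1.15 RPKM, a 2.0-fold difference. In each of these 5 called genes every OHC library lay above every IHC library. These genes were taken as called, so the lack of overlap adds no support to their calls. No share of all genes is given beside it, so it describes these genes only. The weaker Sema4a (13.4-fold), Sema4g (4.69-fold) and Sema4b (2.25-fold) were also higher in OHCs, all under 0.5 RPKM there, Sema4b not with the first lanes alone (limma adjusted p = 0.0683).

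Sema6c and Sema6d departed from the rest of class 6. Sema6c had 0.871 and 0.868 RPKM in the IHC libraries and 0.504, 0.489 and 0.253 RPKM in the OHC libraries, a 2.09-fold higher mean in IHCs (limma adjusted p = 0.0218, and 0.142 without either IHC replicate). Sema6d, a ligand of Plxna1, had 1.49 and 1.14 RPKM in the IHC libraries and 1.44, 2.13 and 1.78 RPKM in the OHC libraries. The Sema6d libraries overlapped, and the difference did not pass (log2 difference -0.41, 95% confidence interval -0.89 to 0.08), although it did without OHC replicate 1 (limma adjusted p = 0.0361). Sema7a, the anchored class 7 member, had at most 1 read in any library.

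Among the plexins, the receptors of the semaphorins, Plxnb2 carried most of the level in both cell types, with 66.1 to 67.9% of the plexin sum in the IHC libraries and 83.2 to 84.4% in the OHC libraries. Plxnb2 (ENSMUSG00000036606, chromosome 15 from 89155549 to 89180788) had 8.32 and 8.48 RPKM in the IHC libraries and 42.9, 41.9 and 42.7 RPKM in the OHC libraries. Its OHC mean was 5.06-fold higher (log2 difference -2.33 ± 0.0324 SE, limma adjusted p = 2.84e-07), which is the smallest adjusted p of the axon guidance genes. Plxna1, a signalling partner of the neuropilins (ENSMUSG00000030084, chromosome 6 from 89316314 to 89362620), had 1.5 and 1.65 RPKM in the IHC libraries and 4.61, 4.89 and 4.42 RPKM in the OHC libraries, 2.94-fold higher in OHCs (limma adjusted p = 3.24e-05). Exons of a neighbouring gene cover 10.7% of its exon length. Plxna3, a second partner of the neuropilins, had 0.245 and 0.249 RPKM against 0.594, 0.737 and 0.768 RPKM, 2.83-fold higher in OHCs (limma adjusted p = 0.00121), and Plxna4 had 0.106 RPKM in IHCs and 0.445 RPKM in OHCs (limma adjusted p = 0.000731).

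Plxnb1, the main receptor of Sema4d, did not follow Plxnb2. It had 1.85 and 1.44 RPKM in the IHC libraries and 1.91, 1.86 and 1.82 RPKM in the OHC libraries, with overlap and no call (log2 difference -0.18, 95% confidence interval -0.49 to 0.13), and passed only without IHC replicate 1 (limma adjusted p = 0.0474). Plxnb3, the third class B plexin, reached the minimum level through the IHC libraries alone, with 0.170 against 0.0119 RPKM on average and 23 to 24 against 1 to 2 reads per library. Plxna2 (0.161 against 0.249 RPKM, limma adjusted p = 0.0662, and 0.0405 without IHC replicate 1) and Plxnd1, the receptor of Sema3e (0.231 against 0.184 RPKM, limma adjusted p = 0.405), did not pass, and Plxnc1 had at most 2 reads in any library.

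The ephrin-A ligands were led by Efna1 (ENSMUSG00000027954, chromosome 3 from 89271733 to 89281142), which was close in both cell types: 34.3 and 33.8 RPKM in the IHC libraries and 33.5, 32.9 and 32.3 RPKM in the OHC libraries. The ratio of the means was 1.03, and the difference did not pass (log2 difference 0.05, 95% confidence interval -0.03 to 0.13). After quantile normalization its sign turned and it passed (-0.09, limma adjusted p = 0.0361), and with the second lanes alone it was -0.01. Efna4 had 1.86 and 1.35 RPKM in the IHC libraries and 5.45, 4.85 and 5.29 RPKM in the OHC libraries, 3.24-fold higher in OHCs (limma adjusted p = 0.000173), and 10.5% of its exon length is covered by another gene. Efna5 had 0.624 and 0.706 RPKM in the IHC libraries and 2.10, 2.53 and 2.16 RPKM in the OHC libraries, 3.4-fold higher in OHCs (limma adjusted p = 0.000121). The ephrin-A ligands that differed were therefore higher in OHCs. Efna2 had 3.76 and 2.44 RPKM in the IHC libraries and 2.91, 2.68 and 2.42 RPKM in the OHC libraries, with overlap and no call (log2 difference 0.18, 95% confidence interval -0.29 to 0.65), and its sign turned without IHC replicate 1 (-0.12). Efna3 had 0.384 RPKM in IHCs and 0.472 RPKM in OHCs (limma adjusted p = 0.571), with the opposite sign without OHC replicate 1 (0.07) or after quantile normalization (0.03).

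Of the EphA receptors, which bind those ligands, 4 of the 5 tested were called higher in IHCs, beside 34.4% of all genes, and 1 of the 4, Epha3, had reached the minimum level through the IHC libraries alone. Epha7 (ENSMUSG00000028289, chromosome 4 from 28813131 to 28967499), which is known in the mouse cochlea from spiral ganglion neurons, had 7.21 and 6.97 RPKM in the IHC libraries and 1.02, 1.17 and 1.26 RPKM in the OHC libraries. It was 6.18-fold higher in IHCs (log2 difference 2.53 ± 0.107 SE, limma adjusted p = 1.2e-05). Epha4, which binds ephrins of both classes (ENSMUSG00000026235, chromosome 1 from 77367185 to 77515088), had 5.71 and 5.29 RPKM in the IHC libraries and 1.72, 1.92 and 1.79 RPKM in the OHC libraries. It was 3.04-fold higher in IHCs (log2 difference 1.55 ± 0.0844 SE, limma adjusted p = 2.97e-05). Epha1, the first Eph receptor to be described (ENSMUSG00000029859, chromosome 6 from 42358487 to 42373268), had 5.29 and 4.69 RPKM in the IHC libraries and 1.83, 1.71 and 2.19 RPKM in the OHC libraries. It was 2.61-fold higher in IHCs (log2 difference 1.34 ± 0.126 SE, limma adjusted p = 0.000255), and other genes cover 6.0% of its exon length. In all 3 the cell types were well apart, and the shares of the EphA sum shifted too, since Epha7 was 38.9 to 40.4% of it in the IHC libraries and 21.1 to 23.4% in the OHC libraries.

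The other EphA receptors were weak, and Epha2 reached the minimum level through the OHC libraries alone. Epha3 had 0.151 RPKM in IHCs and 0.0514 RPKM in OHCs (limma adjusted p = 0.0433), a call lost without IHC replicate 2 (0.143) and without OHC replicate 2 (0.0719) or 3 (0.094). Epha2, an epithelial member, was at 0 in both IHC libraries and at 6 to 17 reads in each OHC library, at least 3.8-fold above the floor of 3 reads per library (limma adjusted p = 0.0117, and 0.0629 and 0.0631 without IHC replicate 1 and 2). Epha6 was at 0 in the OHC libraries with 7 and 17 reads in the IHC libraries, at least 3.93-fold above that floor. Epha5 had 0.0425 RPKM in IHCs and 0.0411 RPKM in OHCs and was not tested, and Epha8 and Epha10 were at 0 in every library.

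The ephrin-B ligands were all called higher in OHCs, 3 of 3 beside 34.4% of all genes, but Efnb3 had reached the minimum level through the OHC libraries alone. Efnb2, a ligand of several EphB receptors and of Epha4 (ENSMUSG00000001300, chromosome 8 from 8617434 to 8661242), had 5.20 and 5.95 RPKM in the IHC libraries and 7.57, 8.10 and 7.92 RPKM in the OHC libraries. This 1.41-fold difference was small beside the others but larger than the spread of the libraries (limma adjusted p = 0.00177). Efnb1, an X-linked ligand, had 0.846 and 0.967 RPKM in the IHC libraries and 1.77, 1.85 and 1.71 RPKM in the OHC libraries, a 1.96-fold difference (limma adjusted p = 0.000717). Efnb3, a ligand of the midline of the nervous system, had 1 read in IHCs and 34 in OHCs, a ratio of read rates of 22.6 with a counting interval of 3.79 to 919, and its call (limma adjusted p = 0.00845) was lost without IHC replicate 1 (0.0532) or 2 (0.0732).

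Of the EphB receptors, 3 of the 4 tested were called higher in OHCs, beside 34.4% of all genes. Ephb3 (ENSMUSG00000005958, chromosome 16 from 21204755 to 21223305) had 1.18 and 0.968 RPKM in the IHC libraries and 5.53, 6.41 and 5.17 RPKM in the OHC libraries. It was 5.31-fold higher in OHCs (log2 difference -2.31 ± 0.128 SE, limma adjusted p = 3.24e-05). Ephb4, the Efnb2 receptor known from veins, had 1.96 and 1.38 RPKM in the IHC libraries and 3.33, 3.82 and 3.47 RPKM in the OHC libraries, a 2.12-fold difference (limma adjusted p = 0.00168). Ephb1 had 0.769 and 0.651 RPKM in the IHC libraries and 1.04, 1.07 and 1.12 RPKM in the OHC libraries, a 1.51-fold difference (limma adjusted p = 0.0107, and 0.0502 without IHC replicate 2). Ephb6, which lacks kinase activity, had 1.70 RPKM in both IHC libraries and 1.39, 1.68 and 1.52 RPKM in the OHC libraries, and did not pass (log2 difference 0.15, 95% confidence interval -0.13 to 0.43). Ephb2 stayed under 0.07 RPKM in every library.

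Summed over each family, the A and B receptors were thus ordered differently in the cell types. EphA receptors summed to 17.9 ± 0.917 RPKM (SD, n = 2) in IHCs and 5.08 ± 0.288 RPKM (SD, n = 3) in OHCs, and EphB receptors to 5.19 ± 0.647 RPKM and 11.9 ± 0.978 RPKM. In every IHC library the EphA sum exceeded the EphB sum, and in every OHC library the EphB sum exceeded the EphA sum. Their ligands did not divide in this way: the ephrin-A sum was 39.8 ± 1.6 RPKM in IHCs and 43.5 ± 1.08 RPKM in OHCs, and the ephrin-B sum 6.49 ± 0.608 RPKM and 9.81 ± 0.376 RPKM. Plexins summed to 12.5 ± 0.073 RPKM in IHCs and 50.6 ± 0.255 RPKM in OHCs, neuropilins to 0.941 ± 0.00548 RPKM and 5.23 ± 0.133 RPKM, and semaphorins to 24.7 ± 0.945 RPKM and 33.8 ± 0.0866 RPKM. Over all families, ligands summed to 120.1 ± 2.76 RPKM in IHCs and 103.4 ± 1.05 RPKM in OHCs, and receptors to 40.5 ± 1.13 RPKM and 79.8 ± 0.678 RPKM. These sums were not tested. They depend on the strongest genes: Ntn4 alone gave 49.0 RPKM of the ligand sum in IHCs and 15.7 RPKM in OHCs. Plxnb2 alone gave 8.40 and 42.5 RPKM of the receptor sum. The ligand sum thus does not describe the ligands gene by gene. Of the 27 tested ligands, 18.5% were called higher in IHCs and 63.0% in OHCs, against 34.4% of all genes each way.

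**Figure D3:**
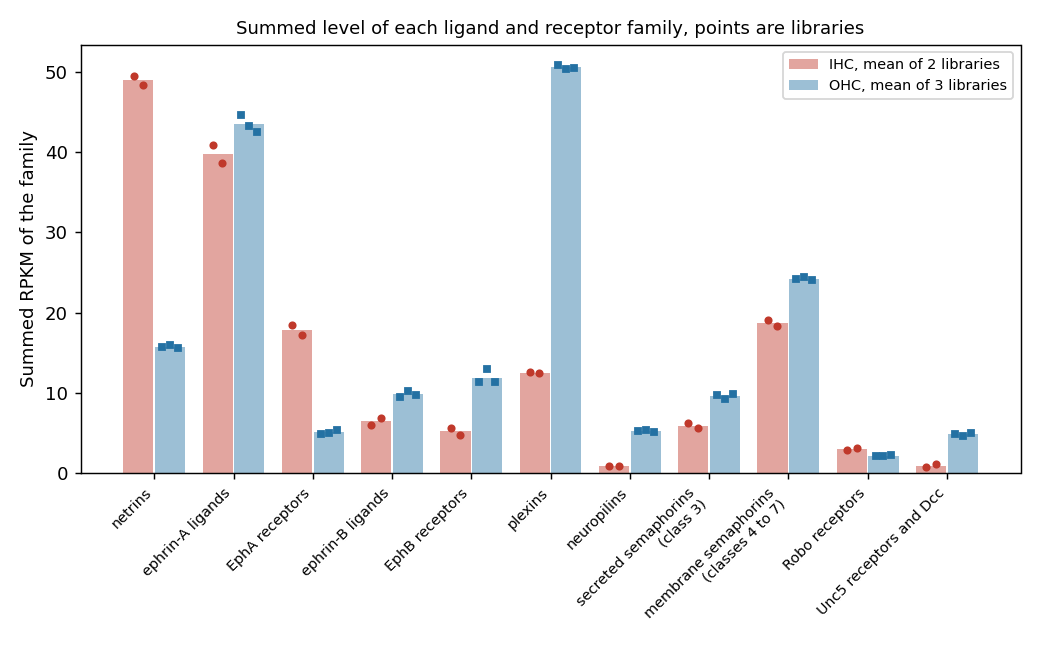
Summed RPKM of each ligand and receptor family, with bars for the mean of the 2 IHC and 3 OHC libraries and points for the libraries. Netrins (48.96 against 15.8 RPKM) and EphA receptors (17.9 against 5.08 RPKM) stand higher in IHCs, and plexins (12.5 against 50.6 RPKM), EphB receptors (5.19 against 11.9 RPKM) and neuropilins (0.941 against 5.23 RPKM) in OHCs.

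Other genes of these pathways were taken from 4 lists of partners and effectors, 77 genes of which 69 were tested, with 24 higher in IHCs, 24 higher in OHCs and 21 not past the test, a share of 34.8% in each direction against 34.4% of all genes. These counts include genes that could enter the test only through the libraries of a single cell type, which are named with their lists below. Of the partners of netrin, RGM and FLRT proteins, 4 of 10 tested were higher in IHCs and 2 in OHCs, beside 34.4% of all genes each way. The strongest was Rgmb, a ligand of neogenin, with 6.28 and 6.60 RPKM in the IHC libraries and 5.86, 5.64 and 5.84 RPKM in the OHC libraries (limma adjusted p = 0.0438). Dscaml1, a cell adhesion molecule related to the netrin receptor Dscam, had 4.19 and 3.11 RPKM against 1.54, 1.41 and 1.48 RPKM (limma adjusted p = 0.000571). Flrt2, a ligand of Unc5 receptors, had 1.04 and 1.25 RPKM against 0.668, 0.808 and 0.745 RPKM (limma adjusted p = 0.0156). These 3 were higher in IHCs, as was Hfe2, a member of the RGM family that could enter the test only through the IHC libraries, at 0.289 RPKM in IHCs and 0 in OHCs. The 2 genes higher in OHCs were Flrt1, of the Unc5 ligand family (0.0845 against 0.362 RPKM, limma adjusted p = 0.00316), and Draxin, a secreted protein that binds netrin-1 and Dcc (0.289 against 0.448 RPKM, limma adjusted p = 0.0302). Flrt1 could enter the test only through the OHC libraries, so its p-value is a description. Hfe2, Flrt1 and Draxin were named after their values were seen.

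Of the co-receptors and effectors of semaphorins and plexins, 10 of 25 tested were higher in IHCs (40.0%) and 8 in OHCs (32.0%), against 34.4% of all genes each way. Among these calls, L1cam (0.471 against 0.0787 RPKM) could enter the test only through the IHC libraries. Mical3 (0.0166 against 0.107 RPKM) and Itga1 (0.00787 against 0.268 RPKM) could enter it only through the OHC libraries. Their calls are a description. Fes, a tyrosine kinase that acts downstream of Plxna1, had 3.16 and 2.80 RPKM in the IHC libraries and 0.102, 0.160 and 0.158 RPKM in the OHC libraries, 21.3-fold higher in IHCs (limma adjusted p = 1.81e-05). Dpysl5, a collapsin response mediator protein, had 0.140 and 0.146 RPKM against 2.43, 2.30 and 2.72 RPKM, 17.3-fold higher in OHCs (limma adjusted p = 7.6e-06). Farp1, a guanine nucleotide exchange factor that binds plexins, had 0.602 and 0.462 RPKM against 1.97, 1.86 and 2.15 RPKM, 3.74-fold higher in OHCs (limma adjusted p = 0.00015). The Rnd GTPases, which bind plexins directly, were divided. Rnd3 had 7.93 and 7.85 RPKM in the IHC libraries against 21.9, 22.8 and 23.1 RPKM in the OHC libraries (limma adjusted p = 2.38e-06). Rnd2, the strongest gene of the list, had 72.3 and 73.0 RPKM against 41.8, 38.2 and 39.3 RPKM (limma adjusted p = 2.37e-05).

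Of the Slit and Robo effectors, 5 of 16 tested were higher in IHCs (31.2%) and 7 in OHCs (43.8%), against 34.4% of all genes each way. Srgap2, a GTPase activating protein that binds Robo1, had 1.02 and 1.10 RPKM in the IHC libraries and 5.05, 4.93 and 5.27 RPKM in the OHC libraries, 4.79-fold higher in OHCs (limma adjusted p = 6.8e-06). Srgap1, of the same family, had 1.96 and 2.04 RPKM against 4.52, 4.33 and 4.26 RPKM, 2.19-fold higher in OHCs (limma adjusted p = 5.35e-05). Dock1, an activator of Rac, had 3.44 and 3.35 RPKM against 1.53, 1.48 and 1.61 RPKM, 2.2-fold higher in IHCs (limma adjusted p = 0.000116). Myo9b had 2.14 and 2.02 RPKM against 4.27, 3.61 and 3.71 RPKM, 1.86-fold higher in OHCs (limma adjusted p = 0.000549). Usp33, a deubiquitinase of Robo1 and the strongest of the list, had 25.8 RPKM in IHCs and 23.9 RPKM in OHCs on average and did not pass (limma adjusted p = 0.124).

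Of the effectors and proteases of Eph receptors and ephrins, 5 of 18 tested were higher in IHCs (27.8%) and 7 in OHCs (38.9%), against 34.4% of all genes each way. Sdcbp, or syntenin, a scaffold that binds the tails of ephrin-B ligands, was the strongest, with 97.4 and 97.4 RPKM in the IHC libraries and 40.8, 42.0 and 43.1 RPKM in the OHC libraries, 2.32-fold higher in IHCs (limma adjusted p = 2.49e-06). Vav3, a guanine nucleotide exchange factor recruited by Eph receptors, had 3.56 and 3.11 RPKM against 0.678, 0.856 and 0.899 RPKM, 4.11-fold higher in IHCs (limma adjusted p = 0.000117). Kalrn, or kalirin, an exchange factor for Rac downstream of EphB receptors, had 0.0651 and 0.0526 RPKM against 1.05, 1.03 and 1.11 RPKM, 18.1-fold higher in OHCs (limma adjusted p = 2.15e-05). Kalrn could enter the test only through the OHC libraries, so its p-value is a description. The same holds for Grip1 (0.0658 against 0.311 RPKM) and Rin1 (0 against 0.116 RPKM), which are also counted among the calls higher in OHCs. Chn2, a chimaerin that inactivates Rac, had 0.456 and 0.490 RPKM against 3.14, 3.33 and 3.69 RPKM, 7.16-fold higher in OHCs (limma adjusted p = 1.18e-05).

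**Figure D4:**
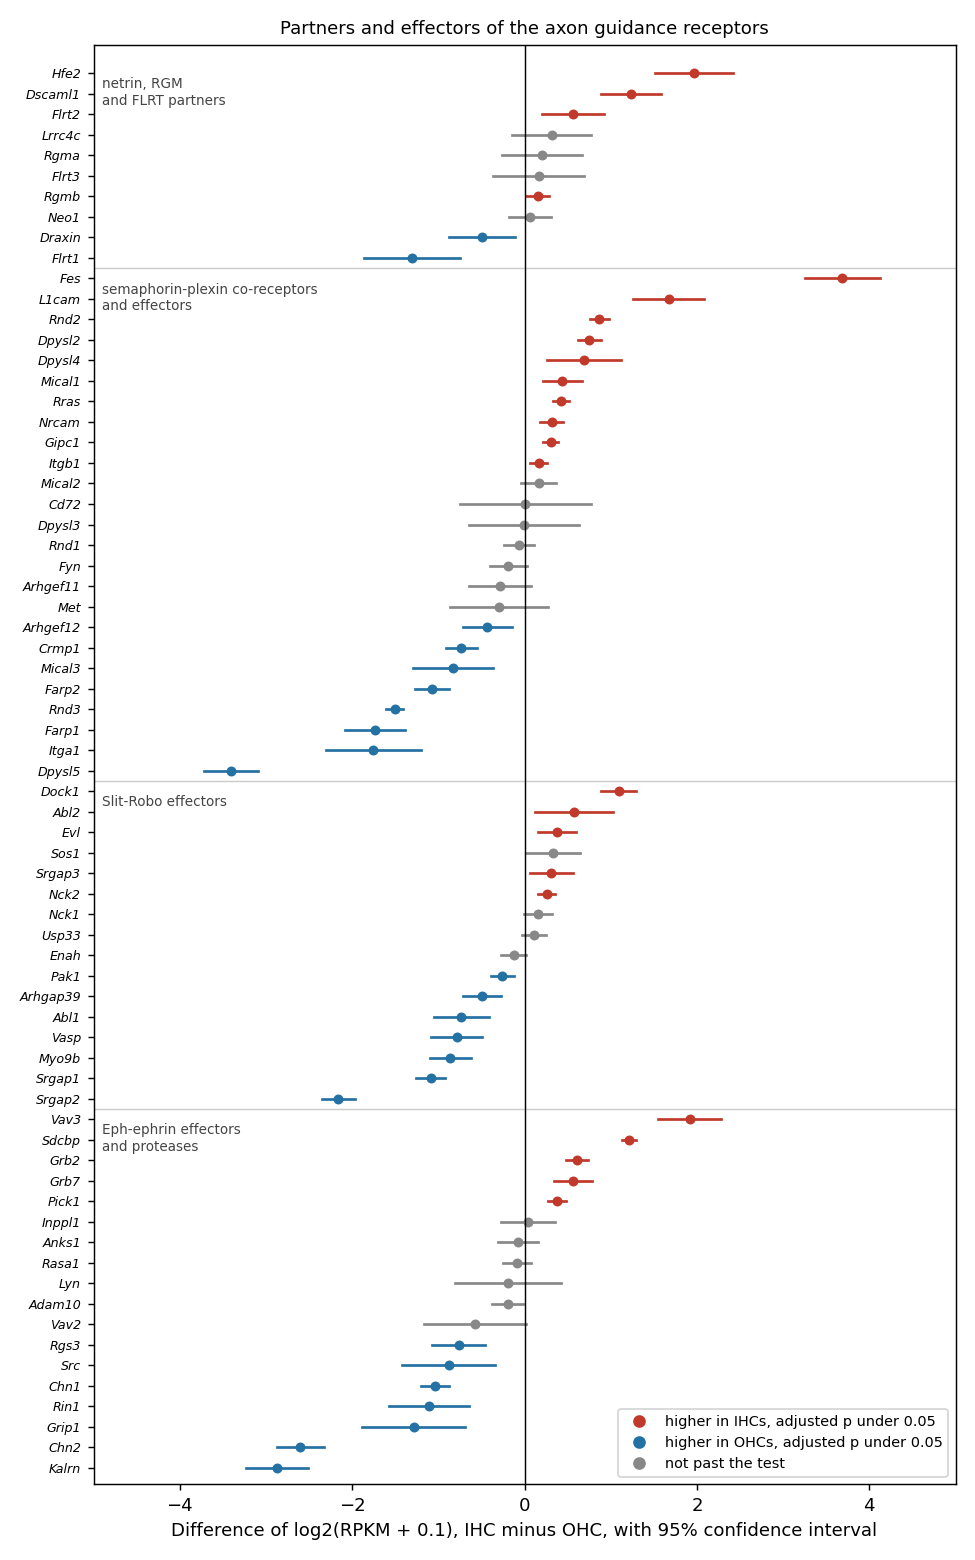
Difference of log2(RPKM + 0.1), IHC minus OHC, for the 69 tested partners and effectors of the axon guidance receptors, in 4 lists, with points for the limma estimate from 2 IHC and 3 OHC libraries and lines for its 95% confidence interval. Each list holds genes on both sides, from Dpysl5 at -3.41 to Fes at 3.69, and the counts are 24 higher in IHCs, 24 higher in OHCs and 21 not past the test.

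The remaining members were too low for the test. Altogether 23 of the 73 genes were not tested, and 8 of them were at 0 in every library: Dcc, Epha8, Epha10, Ntn5, Robo3, Robo4, Slit1 and the antisense RNA Plxna4os3. Ntng2, which encodes netrin-G2, had 2 to 6 reads per library. The antisense RNAs Plxna4os1 and Plxna4os2, which lie inside introns of Plxna4, had 1 to 2 and 4 to 5 reads per IHC library and 0 in OHCs, and since the library kit does not mark strand, their reads cannot be told from unspliced reads of Plxna4, which was higher in OHCs. At these depths 3 reads in a library is the limit set here, so a level of 0 means only that fewer reads than that could be expected.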

How the data were processed

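The authors mapped paired reads to GRCm38 (mm10) with CLC Genomics Workbench, derived gene levels with HTSeq count and deposited RPKM values, 1 column for each of 10 lanes; tool versions are not given in the sources used here. The 2 lanes of a library were averaged. Log2(RPKM + 0.1) was fitted for genes that reached 0.1 RPKM in 2 or more libraries, in R 4.3.3 with limma 3.58.1 (variance trend, two-sided, IHC minus OHC, Benjamini-Hochberg over all genes), after a check on simulated data. Reads were recovered as RPKM times exon length times lane reads: 69.8 to 70.6% of the values of a lane were whole within 0.01 with GENCODE M21 lengths, as were those of 44 detected members, and for 21 members the length was searched. Intervals and the floor of 3 reads per library cover counting error only. Reads of overlapping genes cannot be separated by strand.

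The members and lists were chosen with earlier results of these data known. Values in every library are given for members that average 1 RPKM or more in a cell type, or past the test with a fold of at least 2 and at least 0.5 RPKM. Of each pathway list, the member of highest mean and up to 4 called members with the largest difference and at least 1 RPKM are named. Called list genes that could enter the test only through the libraries of a single cell type are named as well. Alternatives were other pseudocounts, filters, scalings and lanes, no variance trend, a replicate block, each library left out and, added after seeing the data, voom on recovered reads. Python 3.11.15 was used for the rest.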

Additional observations from a re-analysis of the deposited data

How the results depend on the processing

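The counts of 12 genes higher in IHCs and 28 higher in OHCs were recomputed under 16 alternatives. The IHC count ran from 8, with a minimum of 1 RPKM, to 15, with no filter, and the OHC count fell to 18 with the minimum of 1 RPKM, where only 31 of the 50 genes were tested, and was 25 to 30 elsewhere. Leaving out each library in turn gave 10 to 12 and 25 to 28. With the replicate block the counts were 11 and 26, and Epha3, Ephb1 and Nrp1 lost their call (limma adjusted p = 0.15, 0.0673 and 0.121). The deviations of same-numbered libraries from their group means correlated at 0.0125 and -0.0197 across genes for the 2 pairs. This cannot decide whether same-numbered libraries shared mice, which the labels do not say. Voom on the recovered reads gave 12 and 30.

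Of the 40 calls, 31 were kept under every alternative in which the gene was tested, 9 were lost at least once (Epha3, Nrp1, Efnb3, Sema3e, Ephb1, Sema4b, Sema6c, Epha2 and Sema3b), and 0 changed direction. Of the 10 genes without a call, Unc5c, Plxna2, Plxnb1 and Sema6d passed at least once with the same sign. Efna1 passed after quantile normalization with the opposite sign (limma adjusted p = 0.0361). The sign of the log2 difference turned for Efna1 (-0.093 after quantile normalization and -0.0114 with lane 2 only), Efna3 (0.0289 after quantile normalization), Slit2 (0.351 after quantile normalization) and, over the fits that leave out each library in turn, for Efna2 (-0.12 to 0.481, negative without IHC replicate 1), Efna3 (-0.341 to 0.0653, positive without OHC replicate 1) and Slit2 (-0.231 to 0.0151, positive without OHC replicate 1), and the cause was not tested. The median of all genes moved by less than 0.03 on the log2 scale under the other scalings. Leaving out 1 IHC library ended the calls of Sema3b, Sema3e, Sema6c, Ephb1, Efnb3 and Epha2, leaving out 1 OHC library that of Nrp1, and leaving out 1 library of either kind that of Epha3. Plxna2, Plxnb1 and Unc5c passed without 1 of the IHC libraries and Sema6d without OHC replicate 1.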
